A study of Mus musculus with 27 samples.

Results

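The Schlafen genes of the mouse encode a family of intracellular proteins that share a core fold and are clustered on chromosome 11. The members described here are the 7 rows of the deposited table, of 55483 genes, that carry the symbols Slfn1, Slfn2, Slfn3, Slfn4, Slfn5, Slfn8 and Slfn9. Slfn2 was singled out because its recovery with an antibody to HuR, relative to total RNA, changed with LPS in these data. Its values in each comparison that uses the DMSO or LPS libraries are therefore given as descriptions, with no test, and counts of members called there cover the other 6.

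The study asked how small molecules aimed at HuR alter the response of macrophages to lipopolysaccharide (LPS). It used RAW264.7 cells, 1 established mouse macrophage line, with 30 M cells per sample and 6 h of treatment. One set of cells received DMSO, the solvent. Another received LPS, a component of the outer membrane of Gram-negative bacteria, at 1 µg/ml together with DMSO. The last received LPS at 1 µg/ml and TM7nox, a tanshinone mimic, with the mimics given at 10 µM. For each treatment, 4 libraries of total RNA and 4 of RNA immunoprecipitated with anti-HuR (RIP) were sequenced, beside 1 library from control IgG, which carries the replicate number 3. No group analysed here received TM7nox without LPS. The labels give replicate numbers without saying that they mark separate cultures, so p-values measure the spread between these samples, which may be technical.

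Schlafen proteins are grouped by length: a short group with Slfn1 and Slfn2, an intermediate group with Slfn3 and Slfn4, and a long group with Slfn5, Slfn8 and Slfn9 whose members carry a helicase-like region at the carboxyl end. Many are induced by type I interferon, which macrophages secrete after LPS acts on Toll-like receptor 4, and several act on tRNA or restrict viruses and cell growth. HuR, the protein encoded by Elavl1, prefers mRNA stretches rich in U or in A and U, often in the 3′ untranslated region (UTR), and is known as a stabiliser of inflammatory transcripts.

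The libraries held 2.73 to 28.3 M counts for total RNA, 19.8 to 41.4 M for RIP and 8.87 to 24.5 M for IgG. The shallowest, replicate 1 of total RNA in DMSO, stood apart from the next RNA library at 16.3 M. All 8 macrophage markers, among them Lyz2, Csf1r and Adgre1, had a mean above 1 CPM (counts scaled to a common library size and composition) in total RNA. Markers of T, B and NK cells, neutrophils, fibroblasts, epithelium and endothelium all had means below 1 CPM, with Cdh5 the highest at 0.559 CPM. Elavl1 mRNA, a known target of its own protein, stood at a mean of 109 CPM in RNA and 3639 CPM in RIP of LPS cells, against 90.8 CPM in the IgG library of that treatment. In these bulk libraries, fewer cells with a transcript and less of it per cell cannot be told apart.

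The 7 genes lie within a single stretch of chromosome 11 (GRCm39, GENCODE M39). Slfn5 (82842100 to 82855666, plus strand) is followed by Slfn9 (82868552 to 82882656) and Slfn8 (82892984 to 82911669) on the minus strand. Slfn2 (82955609 to 82961504), Slfn1 (83007615 to 83013496), Slfn4 (83066012 to 83081042) and Slfn3 (83082123 to 83109101) lie beyond them on the plus strand. Coding sequences were 1011 bases long in Slfn1 and 1134 in Slfn2, 1806 in Slfn4 and 1920 in Slfn3, and 2652 in Slfn5 and 2730 in Slfn8 and Slfn9. Slfn10, listed in the table as Slfn10-ps and not a member here, lies between Slfn8 and Slfn2 (82918956 to 82958140, minus strand). Among neighbours, 3 pairs are close copies: the coding sequences of Slfn8 and Slfn10-ps were 92.8% identical, those of Slfn8 and Slfn9 92.7% and those of Slfn3 and Slfn4 92.1%. The other neighbouring pairs were less alike, with 71.2% for Slfn1 and Slfn4, 70.3% for Slfn1 and Slfn2, 65.3% for Slfn2 and Slfn10-ps and 60.3% for Slfn5 and Slfn9. Of all stretches of 50 bases in the transcript, 13.4% in Slfn8, 9.8% in Slfn9, 8.5% in Slfn4, 5% in Slfn3 and 3.5% in Slfn2 also occur in another Schlafen transcript. Reads from such stretches could have been given to another copy or dropped, so levels of these members are less certain than those of Slfn5, which shares none.

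Because HuR binds U-rich RNA, the stretch of 24 bases with the most T in each 3′ UTR is shown for Slfn2 and Slfn4, the 2 members with the highest RIP over RNA under LPS, and, for contrast, for Slfn9, with runs of at least 4 T in capitals (DNA letters, GRCm39).
Slfn2, chr11:82961267-82961290, plus strand: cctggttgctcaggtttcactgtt
Slfn4, chr11:83080397-83080420, plus strand: tctaTTTTTTTctatttatatgat
Slfn9, chr11:82869110-82869133, minus strand: tttgataTTTTgcTTTTTTTTTTT
The window of Slfn2 holds 10 T and that of Slfn4 holds 16, beside a median of 15 for the richest window over 20348 mouse 3′ UTRs. The window of Slfn9 holds 19. A longer UTR has more windows to choose from: that of Slfn9 is 3450 bases long and the median of all is 1117. The whole 3′ UTR of Slfn2, 345 bases long, is 21.4% U, at percentile 4.9 of those UTRs, and holds no ATTTA, the pentamer at the heart of many AU-rich elements. That of Slfn4, 922 bases long, is 38.3% U, at percentile 97.2, and holds 3 ATTTA. Among the others, U made up 28.5% in Slfn1, 28.9% in Slfn3, 26.5% in Slfn5, 21.5% in Slfn8 and 22.6% in Slfn9, and ATTTA occurred 0, 4, 9, 2 and 5 times in that order. Per kilobase of UTR that is 3.25 in Slfn4, 2.87 in Slfn5, 2.17 in Slfn8, 1.45 in Slfn9 and 1.26 in Slfn3, beside a median of 1.32. The pentamer is found in 68.6% of all 3′ UTRs, so its presence marks no member out. Base composition is a description, and no site of HuR contact was measured here.

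Interferon acts through a DNA element, the ISRE, searched here on both strands as GAAA, any 2 bases and GAAA again. The 200 bases before the start are shown for the 3 members that hold a match and, as an example without one, for Slfn2; they were chosen with the matches known. Capitals mark its matches (RefSeq starts, GRCm38.p6).
Slfn5, chr11:82951902-82952101, plus strand: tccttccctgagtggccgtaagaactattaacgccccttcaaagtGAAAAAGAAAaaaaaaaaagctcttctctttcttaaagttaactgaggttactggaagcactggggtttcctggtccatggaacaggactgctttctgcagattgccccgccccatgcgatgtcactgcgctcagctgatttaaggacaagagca
Slfn8, chr11:83020811-83021010, minus strand: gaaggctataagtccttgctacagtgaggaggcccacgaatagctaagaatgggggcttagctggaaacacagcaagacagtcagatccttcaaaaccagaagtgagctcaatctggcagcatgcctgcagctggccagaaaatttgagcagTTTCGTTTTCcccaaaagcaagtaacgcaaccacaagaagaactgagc
Slfn9, chr11:82991831-82992030, minus strand: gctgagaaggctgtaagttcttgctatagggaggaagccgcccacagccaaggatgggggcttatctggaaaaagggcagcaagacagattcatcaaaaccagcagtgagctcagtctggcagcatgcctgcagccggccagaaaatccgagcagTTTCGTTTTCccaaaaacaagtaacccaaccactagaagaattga
Slfn2, chr11:83064912-83065111, plus strand: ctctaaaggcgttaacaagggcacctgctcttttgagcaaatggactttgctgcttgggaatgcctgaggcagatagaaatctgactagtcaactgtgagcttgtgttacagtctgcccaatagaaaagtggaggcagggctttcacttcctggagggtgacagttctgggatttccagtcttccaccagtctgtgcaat
In the windows of 250 bases before to 50 after the start, the 3 long members each held the element, at 155 bases before the start in Slfn5, 48 in Slfn8 and 45 in Slfn9. Slfn8 and Slfn9 carry the same 10 letters on the reverse strand, in a promoter that is itself copied between them, and the match of Slfn5 lies in a run of A. The windows of Slfn1, Slfn2, Slfn3 and Slfn4 held no match to these letters. Over all 32851 RefSeq windows, 3.44% held it. The GAS element, searched as TTCNNNGAA on both strands, was in no member's window and in 8.3% of all windows.

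In total RNA, LPS was accompanied by higher levels of the family with 1 exception. Of the 6 members tested, 5 rose (Slfn1, Slfn4, Slfn5, Slfn8 and Slfn9) and Slfn3 fell, where 20.2% of the 12369 genes tested rose and 21.7% fell (13.2% and 34.4% when scaled by plain library totals). The median log2 fold change over these 6 was 2.92, beside -0.04 over all genes tested. The libraries of LPS and DMSO did not overlap for any member, but how many of all genes are separated in this way was not counted. The summed level of the family was 317 CPM in DMSO and 2492 CPM in LPS. In LPS with TM7nox against DMSO, 5 of the 6 members tested were higher and Slfn3 was lower, where 23.7% of genes rose and 23.6% fell (15.1% and 36.9% with plain totals); the DMSO libraries are shared with the comparison of LPS against DMSO. The call of Slfn9 there was lost with replicates 1 and 2 only (0.52, FDR 0.165) and with plain totals (0.38, FDR 0.156). The value of Slfn2 was 2.49 (SE 0.183).

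**Figure D1:**
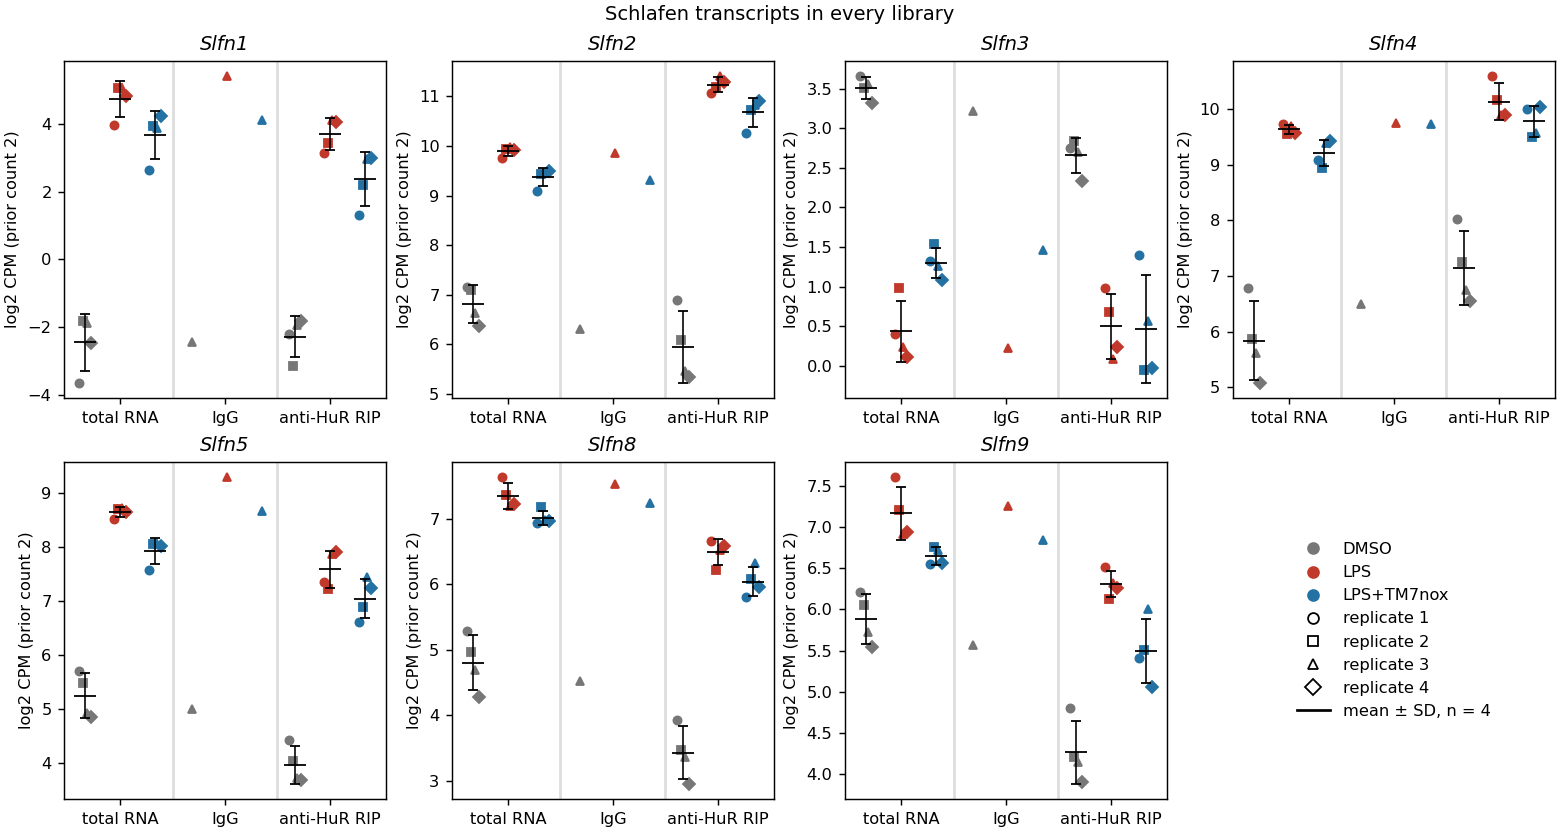
Levels of the 7 Schlafen transcripts in each of the 27 libraries (y axis: log2 CPM with a prior count of 2; x axis: assay; colours: treatment; symbols: replicate number; black: mean ± SD of the 4 libraries, none for the single IgG libraries). Slfn3 is lower in LPS than in DMSO in total RNA and RIP while the rest are higher, and Slfn2 lies higher in RIP than in total RNA under LPS and lower under DMSO for each replicate number.

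Among the short members, Slfn1, described as a brake on T cell growth, was almost absent without LPS. Its total RNA libraries held 0, 8, 6 and 3 counts in DMSO (replicates 1 to 4) and 362, 1032, 974 and 900 in LPS, or 15.5, 33.3, 33.5 and 28.1 CPM. The log2 fold change was 7.38 (SE 0.477, FDR 3.42e-08), a value that rests on 17 counts in all of DMSO. Slfn2, required for the quiescence and survival of T cells and monocytes and known to bind and protect tRNAs, stood at 143, 136, 99.1 and 82.9 CPM in DMSO and at 860, 974, 1002 and 968 CPM in LPS. The log2 difference was 3.01 (SE 0.186). Every LPS library lay far above every DMSO library.

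The intermediate members, which lie side by side and are near copies, went in opposite directions. Slfn4, a myeloid gene linked to macrophage activation, stood at 110, 58, 49.1 and 33.8 CPM in DMSO and 848, 757, 830 and 759 CPM in LPS (log2 fold change 3.64, SE 0.311, FDR 5.25e-07). Slfn3, best known from T cells and the gut epithelium, stood at 12.5, 11.2, 11.7 and 9.89 CPM in DMSO and 1.24, 1.9, 1.1 and 0.998 CPM in LPS (log2 fold change -3.13, SE 0.239, FDR 1.79e-07). Thus Slfn3 was the only member that fell, from a level that was already low.

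All 3 long members rose, with values that ran down from Slfn5 over Slfn8 to Slfn9. Slfn5, an interferon-induced gene with a nuclear protein, moved from 52.1, 44.8, 30.4 and 28.9 CPM to 369, 419, 422 and 401 CPM (log2 fold change 3.34, SE 0.205, FDR 2.17e-08). Slfn8 had a log2 fold change of 2.50 (SE 0.198, FDR 2.53e-07), with 19.4 to 38.8 CPM in DMSO and 147 to 198 CPM in LPS. Slfn9, its near copy, had 1.26 (SE 0.186, FDR 8.6e-05), with 46.5 to 74.2 CPM in DMSO and 121 to 195 CPM in LPS. Differences between members in the size of the response were not tested.

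**Figure D2:**
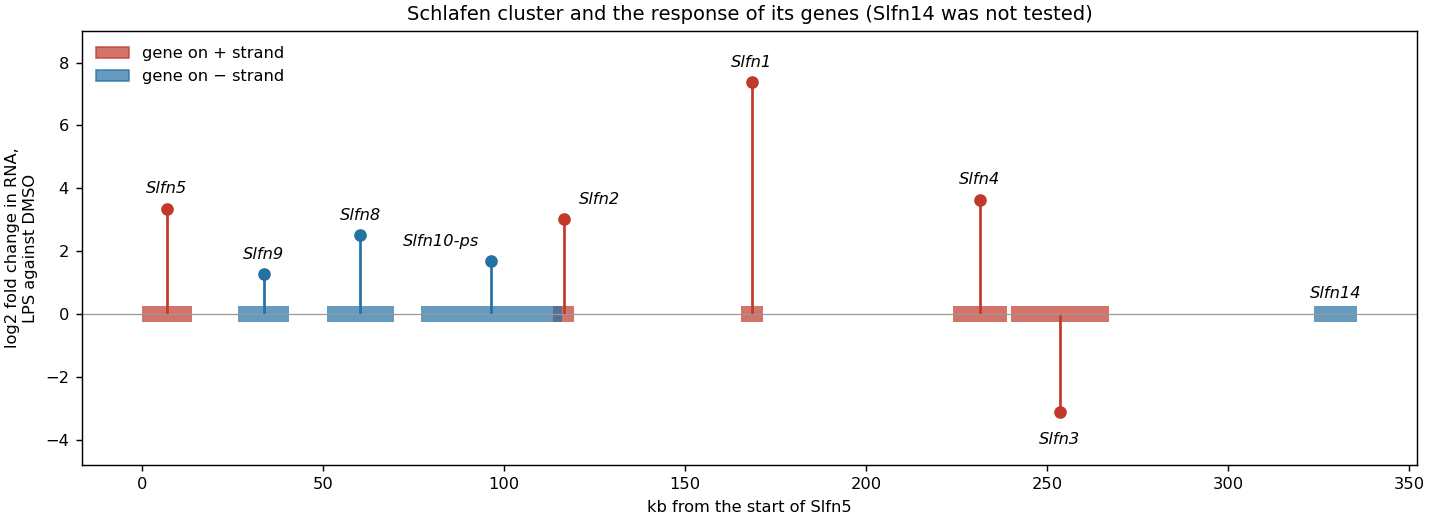
The Schlafen cluster drawn to scale (x axis: kb from the start of Slfn5; boxes: gene extents, coloured by strand) with the log2 fold change of each gene in total RNA, LPS against DMSO (y axis, points). Slfn4 at 3.64 and its neighbour Slfn3 at -3.13 lie side by side, and Slfn14 was too low to test.

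Per kilobase of transcript, which allows members to be compared, Slfn2 was the most abundant member of total RNA in both treatments. In LPS the mean levels were 477 CPM per kb for Slfn2, 206 for Slfn4, 67.4 for Slfn5, 41.9 for Slfn8, 22.4 for Slfn9, 14.3 for Slfn1 and 0.255 for Slfn3. No 2 neighbours in that order overlapped between their 4 libraries. In DMSO, Slfn2 stood at 57.9 CPM per kb (41.6 to 71.8). Slfn4 at 16.2, Slfn9 at 9.17, Slfn8 at 7.33 and Slfn5 at 6.53 CPM per kb followed, and neighbours among these 4 overlapped between libraries. Within each DMSO library of total RNA they kept this order. Slfn3 at 2.21 and Slfn1 at 0.0646 CPM per kb were lowest. The lengths are those of 1 annotated transcript per gene.

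The interferon pathway moved in the same libraries. Of 28 interferon-induced effectors, all rose with LPS in total RNA, where 20.2% of all genes tested rose and 21.7% fell. Their median log2 fold change was 3.21, from Rtp4 at 1.11 (FDR 0.000116), a chaperone of receptor proteins, to Rsad2 at 6.70 (FDR 2.88e-08), the antiviral enzyme viperin. Of 12 genes of interferon signalling, 9 rose and none fell, with Ifnb1, interferon beta itself, at 7.30 (FDR 0.000102) and the receptor subunit Ifnar2 at -0.24 (FDR 0.104). Of the 7 genes of tRNA cleavage and protection, the process in which Slfn2 acts, only 3 were high enough to test, and none was called. Their log2 fold changes ran from -0.40 (Trdmt1, a tRNA methyltransferase, FDR 0.244) to -0.09 (Rnh1, the inhibitor of the tRNA-cutting enzyme angiogenin, FDR 0.516).

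Fewer members were called for TM7nox than for LPS. Compared with LPS alone, Slfn1 and Slfn5 fell and Slfn3 rose in total RNA, while Slfn4, Slfn8 and Slfn9 were not called, where 7.37% of genes rose and 6.4% fell. The log2 fold change was positive for Slfn3 and negative for the others, and the LPS libraries are shared with the comparison of LPS against DMSO. The summed level of the family was 1755 CPM with TM7nox, against 2492 CPM in LPS alone.

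**Figure D3:**
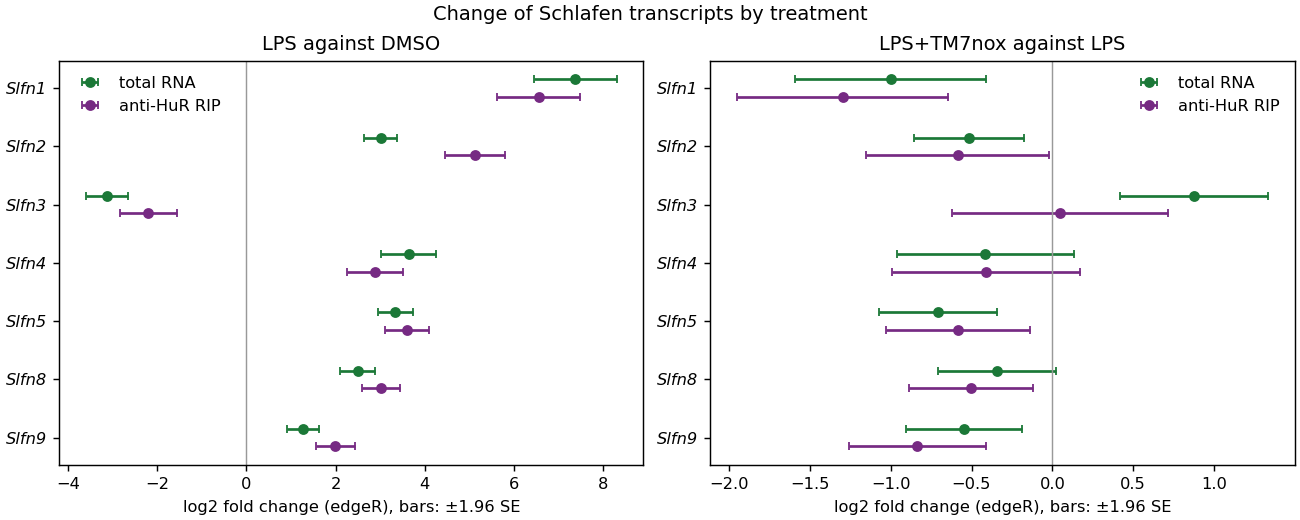
Log2 fold changes of the 7 members (points, edgeR; bars 95% intervals) in total RNA (green) and RIP (purple), for LPS against DMSO (left) and LPS with TM7nox against LPS (right). The LPS values run from -3.13 to 7.38, and those of TM7nox from -1.30 to 0.87; both panels share the LPS libraries.

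Slfn5 stood at 190, 267, 268 and 259 CPM with TM7nox, all below its LPS libraries (log2 fold change -0.71, SE 0.187, FDR 0.0212). Slfn3 stood at 2.43, 2.83, 2.31 and 2.04 CPM, all above LPS and all far below DMSO (0.87, SE 0.234, FDR 0.0228). Slfn1 stood at 6.17, 15.4, 14.6 and 18.8 CPM, overlapping LPS through the low LPS replicate 1 (-0.999, SE 0.301, FDR 0.0405). Slfn2 stood at 548, 687, 700 and 722 CPM, below all LPS libraries, a log2 difference of -0.51 (SE 0.173). The log2 fold changes of Slfn9 (-0.55, FDR 0.0634), Slfn4 (-0.41, FDR 0.388) and Slfn8 (-0.34, FDR 0.275) were not called. Their 4 libraries each lay below all 4 of LPS. How many of all genes are separated from LPS in this way was not counted, so the separation is a description. With replicate pairs as a block, Slfn9 was called as well (FDR 0.0119), beside Slfn1 (FDR 0.000278), Slfn3 (FDR 0.008) and Slfn5 (FDR 0.0109).

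In the fit without pairs, leaving out single libraries ended calls of TM7nox in total RNA. Slfn1 was no longer called without LPS replicate 2 (FDR 0.115), 3 (0.11) or 4 (0.0823), or without TM7nox replicate 1 (0.0587), 2 (0.0658) or 3 (0.0824). Slfn5 was lost without LPS replicate 2 (0.0537) or 3 (0.0505) or TM7nox replicate 1 (0.0612), and Slfn3 without LPS replicate 3 (0.0684) or 4 (0.0757) or TM7nox replicate 2 (0.0635). The direction was kept in each case.

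Of the 28 effectors, 2 fell and none rose with TM7nox, beside the 6.4% of all genes tested that fell and the 7.37% that rose, with Ifit2, a sensor that binds viral RNA, lowest at -1.07 (FDR 0.0461), and the list's median was 0.02. Of the 12 signalling genes, 2 fell and none rose, with Socs1, a feedback inhibitor of cytokine signalling, lowest at -1.28 (FDR 0.0437). Among the tRNA genes Rnh1 rose, by 0.33 (FDR 0.0379).

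In RNA recovered with anti-HuR, the members followed LPS in the same directions as in total RNA. Of 6 tested, 5 rose and Slfn3 fell, where 23.5% of 13614 genes rose and 21.2% fell (9.54% and 47.2% with plain totals). Slfn1 moved from 1 to 6 counts per DMSO library to 190 to 334 counts in LPS (log2 fold change 6.56, SE 0.475, FDR 2.38e-08). The others were Slfn5 at 3.60 (FDR 1.65e-08), Slfn8 at 3.02 (FDR 1.71e-08), Slfn4 at 2.88 (FDR 2.41e-06), Slfn9 at 2.00 (FDR 2.71e-06) and Slfn3 at -2.20 (FDR 5.29e-05). In LPS with TM7nox against DMSO, 5 of the 6 members tested were higher and Slfn3 was lower, where 25.1% of genes rose and 23.1% fell (10.7% and 48.3% with plain totals, where Slfn9 was not called, at 0.54 and FDR 0.0592). Slfn2 had a log2 difference of 4.54 there (SE 0.334).

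Slfn2 had the highest level of the family in RIP under LPS. It stood at 119, 68.4, 43.9 and 40.3 CPM in DMSO and at 2142, 2322, 2703 and 2511 CPM in LPS, a log2 difference of 5.12 (SE 0.344). Of all reads given to the 7 members, Slfn2 took 24.1% in RIP of DMSO cells and 61.2% in LPS, while in total RNA it took 36.7% and 38.2%. Slfn4 took 55.3% of the family's RIP reads in DMSO and 29.1% in LPS. Per kilobase the lead in RIP passed from Slfn4 (39.7 CPM per kb, 24.1 to 67.6) and Slfn2 (34.1, 20.2 to 59.8), which overlapped in DMSO, to Slfn2 alone at 1214, with Slfn4 at 297. Within each RIP library of DMSO, Slfn4 stood above Slfn2 per kilobase.

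With TM7nox, RIP levels of Slfn1 and Slfn9 fell against LPS alone, where 8.64% of genes rose and 7.61% fell. Slfn1 stood at 2.42, 4.54, 7.71 and 7.83 CPM, below its LPS libraries at 8.79, 10.7, 17.3 and 16.6 CPM (-1.30, SE 0.333, FDR 0.0146). Slfn9 stood at 42.5, 45.5, 64 and 33 CPM, below 69.9 to 91.4 CPM in LPS (-0.83, SE 0.215, FDR 0.0149), and was lost without LPS replicate 1 (FDR 0.05). With replicate pairs as a block, Slfn5 (-0.58, FDR 0.0347) and Slfn8 (-0.49, FDR 0.03) were called too. Slfn2, at 1219, 1682, 1822 and 1921 CPM, was below all its LPS libraries with a log2 difference of -0.59 (SE 0.289). Slfn3 was at 0.05 (FDR 0.943) and Slfn4 at -0.41 (FDR 0.372).

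On the TMM scale, Slfn4 was called higher in RIP than in total RNA in DMSO and Slfn2 with TM7nox, and most of the rest stood lower. Both assays were scaled to a common composition, so this ratio compares a transcript with the bulk of genes and holds no absolute amount. In DMSO, Slfn4 was higher in RIP and Slfn3, Slfn5, Slfn8 and Slfn9 were lower, with Slfn1 not called, where 37% of 14311 genes were higher and 33.4% lower. In LPS, Slfn1, Slfn5, Slfn8 and Slfn9 were lower and Slfn3 and Slfn4 were not called, where 32.9% were higher and 30.8% lower. With TM7nox, Slfn2 was higher, 5 members were lower and Slfn4 was not called, where 35.2% were higher and 34.8% lower. The call of Slfn2 is not independent of its choice. These cells also received LPS, and same-numbered RIP libraries of LPS with and without TM7nox deviated together (r 0.46 to 0.743).

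These calls depend on the scale. With plain library totals, the median log2 RIP over RNA of all genes was -0.72 in DMSO, -1.06 in LPS and -1.07 with TM7nox, against 0.04, -0.06 and -0.09 on the TMM scale. The shares of genes higher and lower were then 26.4% and 49.7% in DMSO, 19.8% and 56.8% in LPS, and 23.2% and 55.2% with TM7nox. No member was called higher on that scale. Slfn4 was at 0.59 in DMSO (FDR 0.0988), and its sign turned in LPS (-0.47, FDR 0.182) and with TM7nox (-0.43, FDR 0.22). Slfn2 kept its direction, at -1.45 in DMSO, 0.35 in LPS and 0.29 with TM7nox (FDR 0.271). Slfn3 in LPS was called lower (-0.91, FDR 0.0161).

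**Figure D4:**
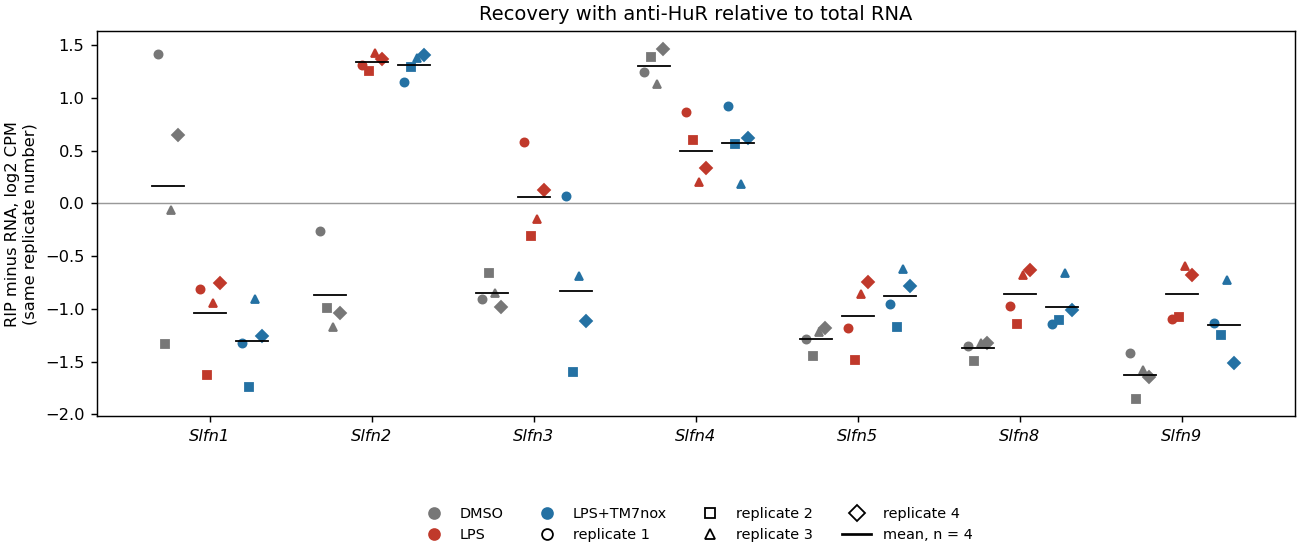
RIP minus total RNA on the log2 CPM scale after TMM scaling (y axis; each point is a pair of libraries with the same replicate number, bars are means of 4 pairs) for each member and treatment. All 4 pairs of Slfn2 lie below 0 in DMSO and between 1.15 and 1.43 in both LPS treatments; Slfn4 lies above 0 throughout on this scale, but not with plain totals, and the long members below.

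For Slfn2 the RIP to RNA ratio of the same-numbered libraries was 0.83, 0.50, 0.44 and 0.49 in DMSO. It was 2.49, 2.39, 2.70 and 2.59 in LPS and 2.22, 2.45, 2.60 and 2.66 with TM7nox. All ratios in DMSO lay below 1 and all of the others above 2.2. With plain totals the DMSO ratios lay between 0.267 and 0.454, those of LPS between 1.14 and 1.51 and those of TM7nox between 1.07 and 1.32. The fitted log2 RIP over RNA was -0.63 in DMSO and 1.35 in LPS, and its change by LPS was 1.97 (SE 0.353). Slfn2 was chosen for this change, so its size and spread are descriptions. Leaving out single libraries moved that change between 1.79 and 2.39, the latter without RIP DMSO replicate 1, which had the highest Slfn2 level of its group. With TM7nox, RIP over RNA was 1.29 (SE 0.251, FDR 6.8e-05), and the change by TM7nox was -0.06 (SE 0.349). That FDR is not independent of the choice of Slfn2, as the fit took its spread from the DMSO and LPS libraries as well.

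Slfn4, whose 3′ UTR is the richest in U of the 7, gave same-numbered ratios of 2.38, 2.61, 2.19 and 2.77 in DMSO and 1.82, 1.51, 1.15 and 1.27 in LPS. On the TMM scale the 2 treatments did not overlap, which held for Slfn2, Slfn3, Slfn8 and Slfn9 as well. With plain totals they overlapped for Slfn3 and Slfn8. How many of all genes are separated in this way was not counted, so the separation is a description. With plain totals the ratios of Slfn4 were 1.30, 1.83, 1.32 and 1.86 in DMSO and 0.884, 0.725, 0.529 and 0.737 in LPS. Its fitted log2 RIP over RNA was 1.46 in DMSO (SE 0.292, FDR 9.02e-05), 0.54 in LPS (FDR 0.1) and 0.55 with TM7nox (FDR 0.0872). The last values were called with other scale factors (edgeR with RLE: FDR 0.0495 and 0.031; DESeq2: 0.0372 and 0.0211). Those factors also moved the median of all genes, in LPS from -0.06 to 0.11 with RLE. The change by LPS was -0.92 (SE 0.404, FDR 0.638).

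The long members were recovered below the typical gene under every treatment. Slfn9 was at -1.48 in DMSO (FDR 3.66e-07), -0.87 in LPS (FDR 0.00037) and -1.16 with TM7nox (FDR 1.1e-05), and its same-numbered ratios ran from 0.28 to 0.66. Slfn8 was at -1.24, -0.85 and -1.003 (FDR 2.16e-06, 0.000225 and 2.63e-05), and Slfn5 at -1.16, -1.04 and -0.90 (FDR 4.17e-05, 0.000144 and 0.000533). Of the 28 effectors, 21 were lower and 2 higher in RIP over RNA under LPS, beside the 30.8% of all genes tested that were lower and the 32.9% that were higher. They ran from Isg15, a ubiquitin-like modifier, at -1.66 (FDR 0.000119) to Trim30a, a regulator of Toll-like receptor signalling, at 3.68 (FDR 1.65e-14).

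The remaining members are the least abundant ones under LPS. Slfn1 was at -0.17 in DMSO on few counts (FDR 0.855), and at -1.06 in LPS (FDR 0.00926) and -1.35 with TM7nox (FDR 0.00162). Slfn3 was at -0.72 in DMSO (FDR 0.0176), 0.08 in LPS (FDR 0.819) and -0.72 with TM7nox (FDR 0.031), on 10 to 60 counts per RIP library with TM7nox. The call of Slfn3 in DMSO was lost with replicates 1 and 2 only (FDR 0.23), without RIP replicate 4 (0.0551) and with RLE factors (0.0515). With TM7nox it was lost with replicates 1 and 2 only (0.32), without RNA replicate 2 (0.0835) or 3 (0.0543), without RIP replicate 2 (0.132), 3 (0.0797) or 4 (0.116), and with RLE factors (0.127) or DESeq2 (0.124).

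No member tested passed the test for a change of recovery between treatments in edgeR or DESeq2. In edgeR, 0.014% of genes were called higher and 0.028% lower for LPS, and 0.00699% higher and 0% lower for TM7nox. In DESeq2 these shares were 0.238% and 0.224% for LPS, and 0.014% and 0.00699% for TM7nox. For LPS, the edgeR values of the 6 members tested ran from -0.92 (Slfn4, FDR 0.638) to 0.81 (Slfn3, FDR 0.694), with Slfn9 at 0.61 (FDR 0.65). For TM7nox they ran from -0.81 (Slfn3, 95% interval -1.63 to 0.01) to 0.14 (Slfn5, -0.45 to 0.72). Among the effectors, the signalling genes and the tested tRNA genes, none was called for either change.

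Control IgG gave the background of this recovery. Over all members and treatments, IgG over RNA at replicate 3 lay between 0.538 and 1.83. The lowest was Slfn1 in DMSO, on 4 IgG counts, and the highest was Slfn4 in DMSO. RIP over RNA of Slfn4 at that replicate number in DMSO was 2.19. Slfn2 had 79.6 CPM in IgG and 43.9 in RIP of the same replicate number in DMSO, 933 and 2703 in LPS, and 632 and 1822 with TM7nox. RIP over IgG for Slfn2 was thus 0.552, 2.90 and 2.88, and with plain totals 0.284, 1.26 and 1.33. Slfn4 gave 1.20, 1.10 and 0.90, and with plain totals 0.616, 0.477 and 0.415.

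**Figure D5:**
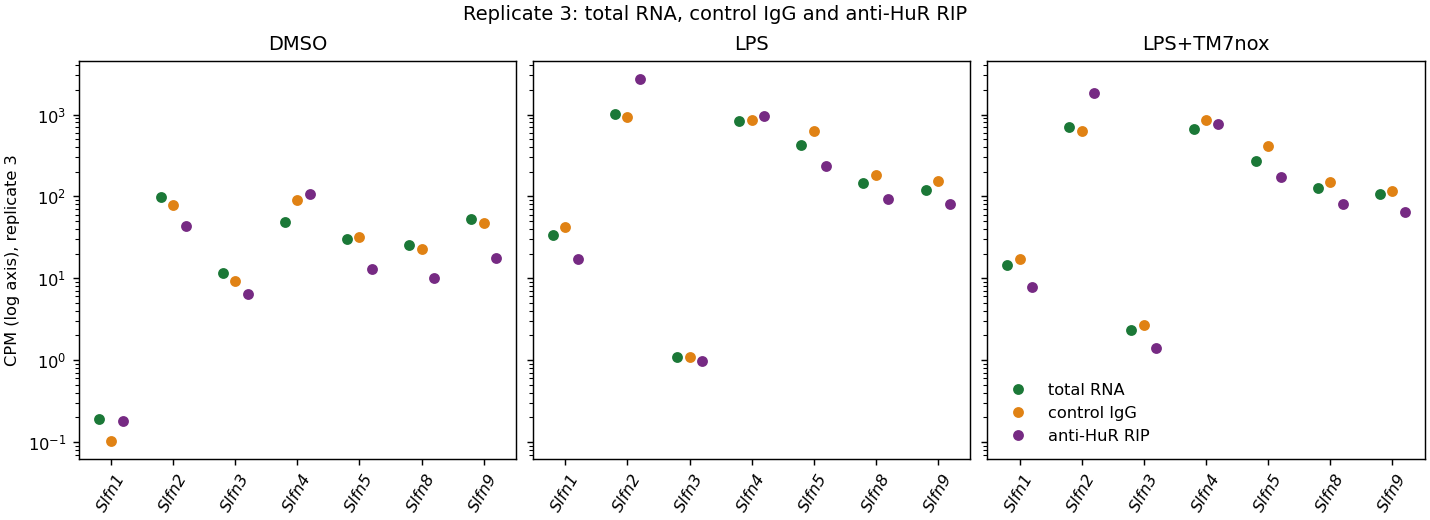
Levels of the 7 members in the replicate 3 libraries (y axis: CPM, log axis) of total RNA (green), control IgG (orange) and anti-HuR RIP (purple), 1 library per point, by treatment. Slfn2 in RIP lies above IgG with LPS (2703 against 933 CPM) and below it in DMSO (43.9 against 79.6 CPM).

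Over all treatments together, 33.8% of 14973 genes were higher in RIP than in IgG and 34.2% lower (19.4% and 55.8% with plain totals, where the median of all genes was -1.02). Slfn1 (-1.49, FDR 0.000238), Slfn5 (-1.47, FDR 1.11e-06), Slfn9 (-1.20, FDR 4.43e-06) and Slfn8 (-1.11, FDR 3.55e-06) were lower, and Slfn3 (-0.40, FDR 0.232) and Slfn4 (0.38, FDR 0.212) were not called. Slfn2 was at 0.72 (SE 0.317), a mean over treatments that differ in direction, and moved with the IgG library left out: 1.37 without DMSO, 0.46 without LPS and 0.41 without TM7nox. With plain totals the sign of Slfn2 turned (-0.30), as did that of Slfn4 (-0.66, FDR 0.024), and Slfn3 was called lower (-1.41, FDR 0.000312). Values within a treatment rest on 1 IgG library and were not tested.

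Slfn2 overlaps genes on the other strand, which bears on its counts because the sources used here do not give the strand setting of the counting. The library kit keeps strand. The overlapping genes are Slfn10-ps and Gm20234; without strand, reads of the shared stretch could not be assigned to one or the other. Gm20234 rose in RIP with LPS by 2.65 (SE 0.314, FDR 5.57e-06) and was higher in RIP than in RNA under LPS by 1.91 (FDR 7.04e-05), at a mean of 11.8 CPM in RIP under LPS, where Slfn2 had at least 2142 CPM. RIP over IgG for Gm20234 at replicate 3 was 0.983 in DMSO and 5.88 in LPS. Its part in the values of Slfn2 was not tested.

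Other Schlafen rows of the table were Slfn10-ps, Slfn14, Slfnl1 and Slfn5os. Slfn10-ps, a near copy of Slfn9 with 93.1% identical coding sequence, rose with LPS in total RNA by 1.67 (FDR 4.37e-07). It rose further with TM7nox, by 0.73 (SE 0.134, FDR 0.00241), from a mean of 55.6 CPM to 91.8 CPM, while Slfn9 and Slfn8 had negative values in that comparison. In RIP its value for TM7nox against LPS was 0.30 (FDR 0.301). The other 3 had 22 counts or fewer per group in total and were not tested.

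Across the 24 RNA and RIP libraries, the genes whose log2 CPM ran most like a member's differed between members, with Pearson's r given as a description. These libraries share the treatments and assays, which sets much of r. Slfn2 ran most like Gbp7 (0.964), an interferon-induced GTPase, Tlr3 (0.959), a sensor of double-stranded RNA, and Zfp36 (0.958), an AU-rich element binding protein. Zfp36 (0.972) also led for Slfn4, before Src (0.965) and Dusp1 (0.964). Slfn1 ran most like Il27 (0.989), Nos2 (0.986) and Hdc (0.986), genes of cytokine, nitric oxide and histamine synthesis. Slfn5 ran like Plek (0.990), Slfn8 like Irgm1 (0.992) and Slfn9 like Sec24b (0.969). Slfn3, at a mean of 4.02 CPM, was below the minimum of 5 CPM for this search. Between members, r over the same libraries was 0.987 for Slfn5 and Slfn8 and 0.607 for Slfn2 and Slfn9, while over the 12 RNA libraries alone the latter was 0.908.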

How the data were processed

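Total RNA, anti-HuR RIP and control IgG were profiled in RAW264.7 cells. The authors deposited 1 table of raw counts, whole numbers of reads per gene and library with no normalization, per the file headers. The submitters' processing notes name FastQC 0.11.9, STAR, HTSeq, DESeq2 and the build GRCm39, without roles. Neither the annotation release nor the strand setting is stated in the sources used here. Libraries were made with a stranded kit, per the labels' protocols.

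The test was that of edgeR 4.0.16 on R 4.3.3 (quasi-likelihood F tests, two-sided, TMM scaling, filterByExpr with a minimum count of 10, Benjamini-Hochberg adjustment over all genes tested, called at an FDR under 0.05). SE was taken from the fold change and its F value. The RNA, the RIP, both together (RIP over RNA and its change) and RIP with IgG (treatment as covariate) were fitted separately. An FDR printed without a tool is edgeR's. CPM values are on 1 TMM scale over 27 libraries, and log2 CPM used a prior count of 2. Intervals of fold changes are 95%, from the SE and a normal distribution. Alternatives were DESeq2 1.42.0, RLE factors, no filter, a replicate block, subsets of replicates, leaving out each library and, added after seeing the data, scaling by plain library totals. The scripts were tested on simulated data. All 36 replicate pairs differed beyond sampling noise (chi-square per gene 38 to 213). PCR copies cannot be told from molecules.

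The replicate numbers, from the labels, pair the samples: same-numbered libraries of the groups compared deviated together over 8610 genes (r 0.299 to 0.656 within RNA, 0.307 to 0.743 within RIP, and 0.156 or more in the groups of the changes of recovery).

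The 7 members were named in each comparison. From the lists of interferon signalling, interferon-induced effectors and tRNA genes, counts and the highest and lowest gene were named, and for likeness the 3 genes of highest r for each member. Members and lists were chosen with earlier results of these data known. Positions and UTRs came from GENCODE M39 and GRCm39, and promoters from RefSeq on GRCm38.p6, found for all 7 members; promoter positions are on that build and no other. CDS identity came from global alignment in Biopython 1.88.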

Additional observations from a re-analysis of the deposited data

Results flagged for a closer look

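With 42 groups of 4 libraries examined, chance alone sets about 1 in 20 apart. Slfn5 in total RNA with TM7nox had 1 low library, replicate 1 at 190 CPM, with the others at 259 to 268 CPM. Slfn8 in the same treatment had 1 high library, replicate 2 at 145 CPM, with the others at 123 to 127 CPM. For Slfn2, all 4 same-numbered pairs lay below 0 in RIP over RNA in DMSO and all 4 above 0 in LPS, a fitted change of 1.97 on the log2 scale. The gene was chosen for this change, and the difference was not tested.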

How the results depend on the processing

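Of 1414 recomputed log2 fold changes, 1327 kept their direction and their side of the threshold or, where not tested, moved by less than the spread between replicates. Levels are not among them and depend on the scale. With plain totals, mean Slfn2 under LPS was 1474 CPM in RIP and 1160 CPM in RNA, beside 2419 and 951 CPM on the TMM scale. The calls of LPS against DMSO in RNA and in RIP held in every alternative run. The count of members called for TM7nox against LPS in total RNA, 3 of 6, became 4 with DESeq2, 4 with no filter on low counts, 4 with the replicate block, 3 with replicates 3 and 4 only and 0 with replicates 1 and 2 only, and ranged from 0 to 3 when single libraries were left out. In RIP, 2 members became 4 with the replicate block, 1 with replicates 1 and 2 only, 1 with replicates 3 and 4 only, and 1 to 2 with single libraries left out. The block changed no other call of a member. The causes were not tested.

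Scaling by plain library totals was added after seeing the data. With it, RIP over RNA in LPS was -0.91 for Slfn3 and -0.47 for Slfn4, RIP over RNA with TM7nox was -0.43 for Slfn4, the change by LPS was -0.058 for Slfn5, and RIP against IgG was -0.30 for Slfn2 and -0.66 for Slfn4, all with the sign turned. Over all genes, the change of recovery by LPS was called higher for 2 and lower for 4 in edgeR, 34 and 32 in DESeq2, and 2 and 25 with plain totals; the change by TM7nox was called for 1 and 0, 2 and 1, and 2 and 0.

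Under the other alternatives, some values turned sign, none of them called. For RIP over RNA in DMSO, Slfn1 was 0.036 with RLE factors, 0.062 with DESeq2, 0.41 with replicates 3 and 4 only, and -0.42 to 0.16 with single libraries left out. For RIP over RNA in LPS, Slfn3 was -0.046 with replicates 3 and 4 only and -0.10 to 0.33 with single libraries left out. In RIP with TM7nox against LPS, Slfn3 ran from -0.40 to 0.28 on leaving out single libraries. The change of recovery by TM7nox ran in the same way from -0.55 to 0.014 for Slfn1, -0.17 to 0.10 for Slfn2 and -0.070 to 0.23 for Slfn4, which was -0.077 with no filter. The change by LPS for Slfn5 was -0.11 with replicates 1 and 2 only, and Slfn4 against IgG was -0.0063 with the replicate block. Depth limits Slfn1 in DMSO, with 0 to 8 counts per RNA or RIP library, and Slfn3 with LPS, with or without TM7nox, at 10 to 77. The IgG values rest on 1 library per treatment.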
